A study of Mus musculus with 2 samples.

Results

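The genes examined here encode the machinery that displays peptides on MHC class I molecules: the classical heavy chains H2-K1 and H2-D1, the light chain B2m, the peptide transporter subunits Tap1 and Tap2, the loading factors Tapbp, Calr, Canx and Pdia3, and the transactivator Nlrc5. A spot belonged to the set if it was not a control and its gene name on the array was 1 of these 10 symbols. Of the 10 genes, 9 were found, with 19 of 41174 gene probes and 37 of 43379 gene spots per array. No spot carried the name Nlrc5, which was not analysed here. All 9 genes were measured, among 9273 measured genes, and the brightest probe of each was well above background in all 4 samples.

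RNA came from naive CD8+ T cells, sorted as low in both CD44 and CD25 from Bcl11bF/F/dLck-iCre mice and from wild type mice, both of the C57BL/6 strain. In the former, here called knockout, the floxed Bcl11b gene of a T cell transcription factor is excised by iCre under the distal Lck promoter, which acts late in thymic development. The labels give neither the age and number of the mice behind a sample nor whether the wild type mice carried a floxed allele or iCre. On each of 2 two-colour arrays, called biological replicates 1 and 2, a knockout sample was labelled with Cy5 and a wild-type sample with Cy3, so n = 2 ratios and the dye of a sample cannot be told apart from its genotype. Values are log2 ratios of knockout over wild type, so that 1 means a doubled signal.

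Class I molecules are carried by nearly all nucleated cells. A heavy chain folds in the endoplasmic reticulum with the lectin chaperone calnexin (Canx), binds beta-2 microglobulin (B2m) and joins the peptide loading complex, in which tapasin (Tapbp), calreticulin (Calr) and the disulphide isomerase ERp57 (Pdia3) hold it next to the TAP transporter until a peptide from the cytosol fits. Self peptides on class I molecules also supply naive CD8+ T cells with contacts that keep them alive. NLRC5 has no DNA binding domain of its own and acts through factors that sit on a shared promoter module of class I genes.

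That module is the reason for showing 3 promoters here. Each sequence is the 250 bases before the start of the gene (RefSeq, GRCm38.p6), read 5′ to 3′ on the strand of the gene. Capitals mark the NF-kappaB motif (GGG and TTCCC with any 2 bases between), the interferon regulatory factor (IRF) motif AANNGAAA, and TGACG (the X2 box, bound by CREB and ATF factors) followed after 20 bases by ATTGG (the Y box, CCAAT on the other strand, bound by NF-Y). H2-K1 lies at chr17:34000348-34000597 on the minus strand (first of the starts listed), H2-D1 at chr17:35262844-35263093 and B2m at chr2:122147437-122147686, both on the plus strand.
H2-K1: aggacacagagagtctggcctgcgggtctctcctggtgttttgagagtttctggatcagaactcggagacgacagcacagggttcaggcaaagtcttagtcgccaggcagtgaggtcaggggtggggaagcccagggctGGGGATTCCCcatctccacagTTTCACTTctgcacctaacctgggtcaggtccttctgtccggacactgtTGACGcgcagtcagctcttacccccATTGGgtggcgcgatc
H2-D1: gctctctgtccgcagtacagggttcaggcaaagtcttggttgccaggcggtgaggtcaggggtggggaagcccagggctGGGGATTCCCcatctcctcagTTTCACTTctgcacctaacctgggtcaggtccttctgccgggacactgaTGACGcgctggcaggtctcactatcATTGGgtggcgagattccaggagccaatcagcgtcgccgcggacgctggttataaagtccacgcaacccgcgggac
B2m: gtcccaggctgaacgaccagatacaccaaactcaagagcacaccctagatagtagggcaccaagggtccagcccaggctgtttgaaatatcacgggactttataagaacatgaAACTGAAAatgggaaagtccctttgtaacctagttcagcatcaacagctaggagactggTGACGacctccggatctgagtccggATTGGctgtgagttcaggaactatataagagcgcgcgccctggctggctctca
Of the 10 genes, 8 had a promoter in the table, and these 3 alone among them held TGACG and ATTGG at that distance on either strand. Only 25 of 27025 promoters of this length (0.0925%) did so, but the distance was chosen after the sequences had been read. The NF-kappaB motif stood in H2-K1 and H2-D1 and in 1.44% of all promoters, the IRF motif in B2m, Calr, H2-K1 and H2-D1 and in 21.6%. TGACG alone occurred in 17.9% and CCAAT in 34.5%. Aligned at the module, H2-K1 and H2-D1 were identical at 166 of 190 bases (87.4%), and their marked NF-kappaB, IRF and module matches did not overlap.

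Before the results, some facts of the series bear on them. Array 1 was the more variable: 2504 of the measured genes exceeded 2-fold there and 263 on array 2, and across genes, which are not independent, the ratios of the 2 arrays had a Pearson r of 0.29 and a Spearman rho of 0.32. Bcl11b itself had log2 intensities of 13.16 in wild type and 11.70 in knockout on array 1, and of 13.77 and 12.04 on array 2, by its brighter probe. Its mean ratio of -1.59 did not pass the threshold of 0.05 (adjusted p = 0.075, limma). Its second probe gave ratios of -0.35 on array 1 and -2.32 on array 2. The array coordinates do not say whether a probe lies in the excised part. Y-linked Eif2s3y, and Ddx3y by its brighter probe, were well above background only in knockout on array 1 and only in wild type on array 2. The paired samples thus differed in Y-linked RNA, in opposite directions on the 2 arrays. Within an array, a difference in the sex of the mice cannot be told apart from genotype. Over all genes 138 (1.49%) passed the test of limma (adjusted p under 0.05), 115 higher (1.24%) and 23 lower (0.248%) in knockout. With median centring 63 were higher and 1 was lower, and no gene passed once both arrays were scaled to the same spread (1050 at an unadjusted p under 0.05), with the scanner's own log ratio (574) or without the filter on dim probes (2478). One standard error, 0.50, applied to all genes in that fit.

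None of the 9 measured class I presentation genes passed that test. Canx and Pdia3, 2 of them, had an unadjusted p under 0.05 (limma), as did 904 of all 9273 measured genes. The counts at an unadjusted p under 0.05 given below for other lists have this same background. In simulated ratios that test called 4.8% of log2 changes of 1 and 83.6% of changes of 2. It could therefore miss changes of the size seen here. The heavy chains and B2m were above 0 on both arrays by their brightest probes, the calnexin and ERp57 genes were far above 0 on array 1 and slightly above on array 2, and the transporter and tapasin genes lay near or below 0. In all, 5 genes were above 0 on both arrays, where 30.9% of all measured genes were, and 2 were below 0 on both (30.8% of all). Their median of the mean ratios was 0.41, against 0.04 over all measured genes. By array the median was 0.12 on array 1 (0.05 over all genes) and 0.43 on array 2 (-0.01 over all genes). In sorted bulk cells, a change in the RNA of each cell and a change in which cells were sorted cannot be told apart.

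**Figure D1:**
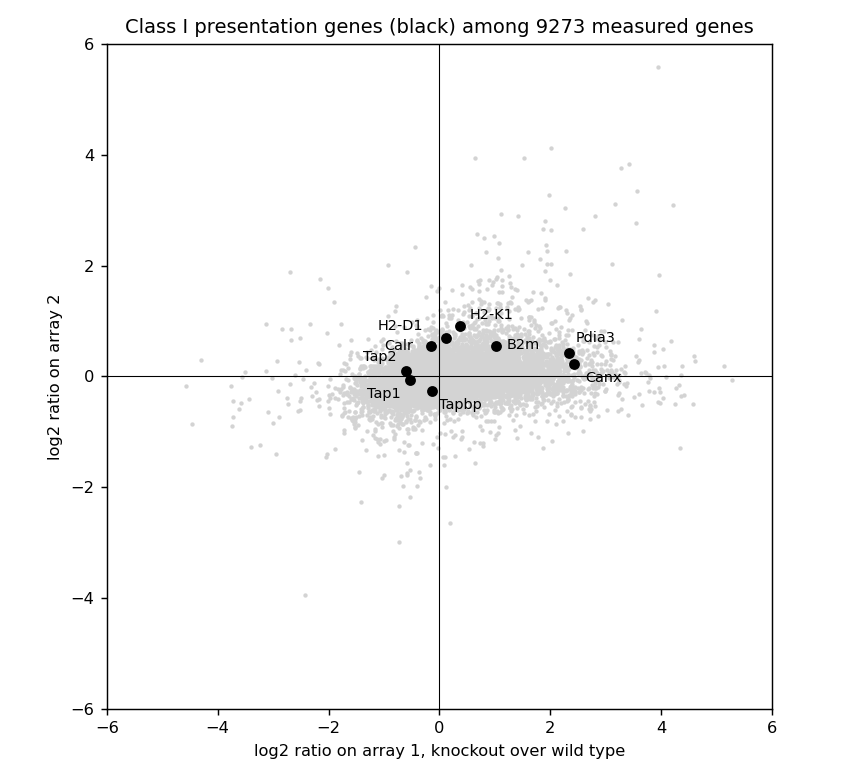
Log2 ratio on array 1 (x axis) against array 2 (y axis) for all 9273 measured genes (grey) and for the 9 class I presentation genes (black, labelled). The black points lie inside the grey cloud: H2-K1, H2-D1 and B2m are highest on array 2 (0.55 to 0.91) and Canx and Pdia3 on array 1 (2.33 to 2.44), while Tap1, Tap2 and Tapbp, which turn positive with median centring, stand at -0.60 to 0.09.

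The classical heavy chains were brighter in knockout by their leading probes, more so on array 2. H2-K1 encodes the K molecule. Its brightest probe, at mm8 chr17:33606564-33606623 on the minus strand, had log2 intensities of 16.81 in wild type and 17.19 in knockout on array 1, and of 16.32 and 17.23 on array 2. Both knockout samples were above both wild-type samples. The ratio was 0.38 on array 1 and 0.91 on array 2, a mean of 0.64 ± 0.37 (SD, n = 2), or 1.56-fold (95% interval -0.33 to 1.62; adjusted p = 0.812, limma). H2-D1 encodes the D molecule, and its brightest probe, at chr17:34874545-34874777 on the plus strand, had 15.92 in wild type and 16.04 in knockout on array 1, and 15.85 and 16.55 on array 2. Here too the genotypes did not overlap, though on array 1 they were close. The mean ratio was 0.41 ± 0.41 (adjusted p = 0.916). On array 2 the H2-K1 ratio stood at percentile 97.7 of all measured genes and that of H2-D1 at percentile 96.3, and on array 1 at percentiles 61.3 and 52.4.

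Other probes of H2-K1 did not follow its brightest one. A probe at chr17:33606572-33606626, sharing 52 bases of its position with the brightest probe and designed on another accession, gave -0.12 on array 1 and 0.03 on array 2. That is 0.49 and 0.88 below the brightest probe on the same arrays. Probes 3233 and 3423 bases nearer the start of the gene gave -0.85 and 0.04, and -0.98 and 0.13. All 4 exceeded background clearly in every sample, and averaging them turned the mean ratio of H2-K1 to -0.06. The 2 probes of H2-D1 agreed in sign, the second giving 0.62 and 0.73. Class I heavy chain genes have near-identical copies, so a probe can also detect RNA of its neighbours, and the values of H2-K1 and H2-D1 are uncertain to that extent.

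B2m, the light chain of every class I molecule, was higher in knockout on both arrays by 2 of its 3 probes. Its brightest probe, at mm8 chr2:121844106-121844165 on the plus strand, had 13.52 in wild type and 14.55 in knockout on array 1, and 15.23 and 15.79 on array 2. Knockout exceeded wild type within each array, but the wild-type sample of array 2 was above the knockout sample of array 1. The ratios were 1.02 and 0.55, a mean of 0.79 ± 0.33 (SD, n = 2), or 1.73-fold (95% interval -0.18 to 1.76; adjusted p = 0.689, limma). The second probe, at chr2:121844230-121844286, gave 1.01 and 0.33. The third, 3923 bases nearer the start of the gene than the last one, gave 0.42 and -0.09. In H2-K1, B2m, Tapbp and Canx the probe nearest the start had the lowest mean ratio (the Canx probe being the one that failed the filter), and in Calr and H2-D1 the mean ratio was higher for the probe nearer the start.

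**Figure D2:**
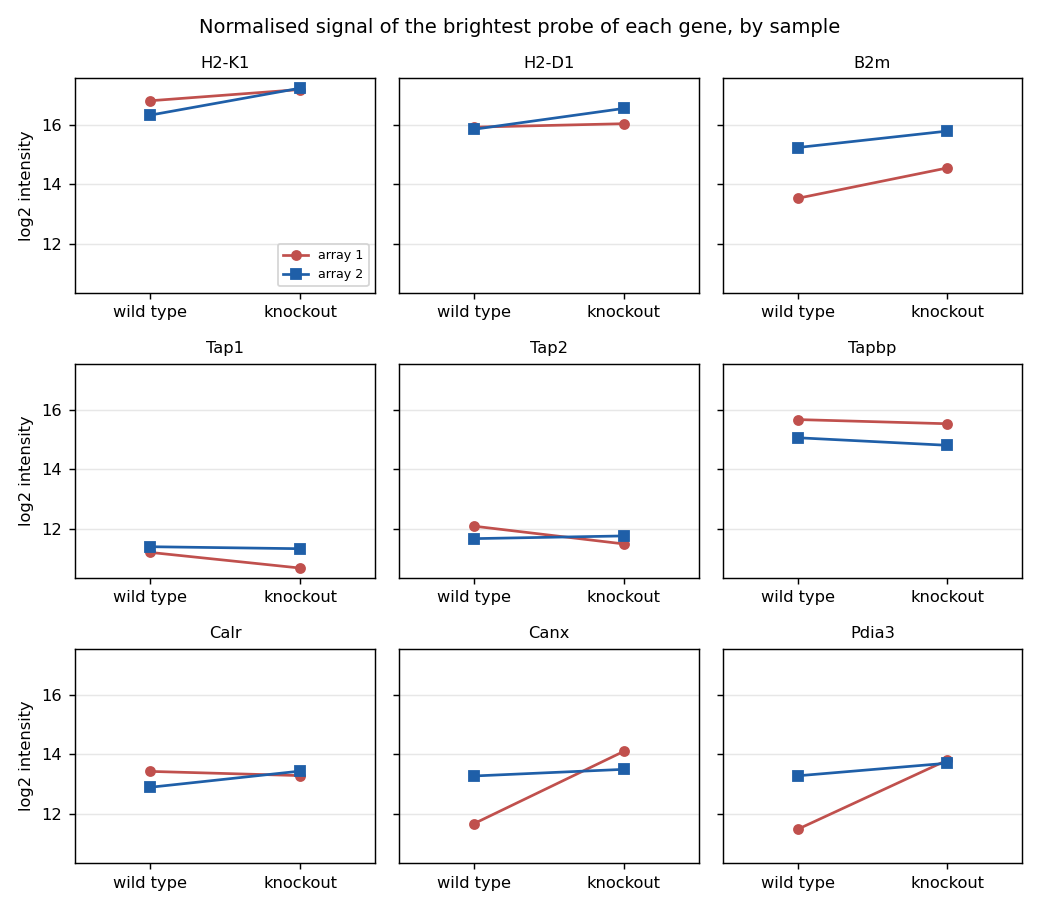
Normalised log2 intensity (y axis) in the wild-type and knockout sample of array 1 (red circles) and array 2 (blue squares), for the brightest probe of each gene; levels of different genes are not comparable. Lines rise on both arrays for H2-K1, H2-D1, B2m, Canx and Pdia3, fall or stay near level for Tap1, Tap2 and Tapbp (which rise with median centring), and for Canx and Pdia3 start from a low wild-type sample on array 1 (11.67 and 11.48).

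One probe each of H2-K1 and B2m was spotted 10 times on every array, which gives the measuring error within an array. For B2m, 9 spots without a flag gave 0.92 to 1.09 on array 1 (median 1.01, SD 0.06) and 9 gave 0.27 to 0.39 on array 2 (median 0.34, SD 0.04). The spots of the 2 arrays did not overlap, so for this probe the arrays differed by far more than the spots. For H2-K1, 9 spots gave -0.07 to 0.57 on array 1 (median 0.50, SD 0.24) and 10 spots gave 0.73 to 0.99 on array 2 (median 0.92, SD 0.09). Again no spot of one array reached the range of the other. The median spot SD over the 245 probes with 10 or more spots was 0.10 on array 1 and 0.07 on array 2, and the H2-K1 spread on array 1 was at percentile 96.7 of them.

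The wide H2-K1 spread on array 1 went with the place of the spots. The 4 unflagged spots in the first 25 of 85 grid columns gave -0.07 to 0.42, with knockout signals of 189553 to 310574, and the 5 others gave 0.50 to 0.57, with 335211 to 370638. Over the 20 brightest replicated probes (top 5% of brightness), knockout signals in those columns were 0.39 (log2) below the probe's median on array 1 and 0.01 below it on array 2; their log ratios were 0.07 and 0.01 below. Single spots of B2m (brightest probe), Pdia3, both probes of H2-D1, the second Tapbp probe and the dimmest Canx probe lay in that band. Without the band the mean ratio was 0.74 for H2-K1 and 0.66 for B2m, then read from its second probe, while H2-D1 and Pdia3 had no spot left. The part of the band in the values of H2-D1 and Pdia3 was not tested.

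**Figure D3:**
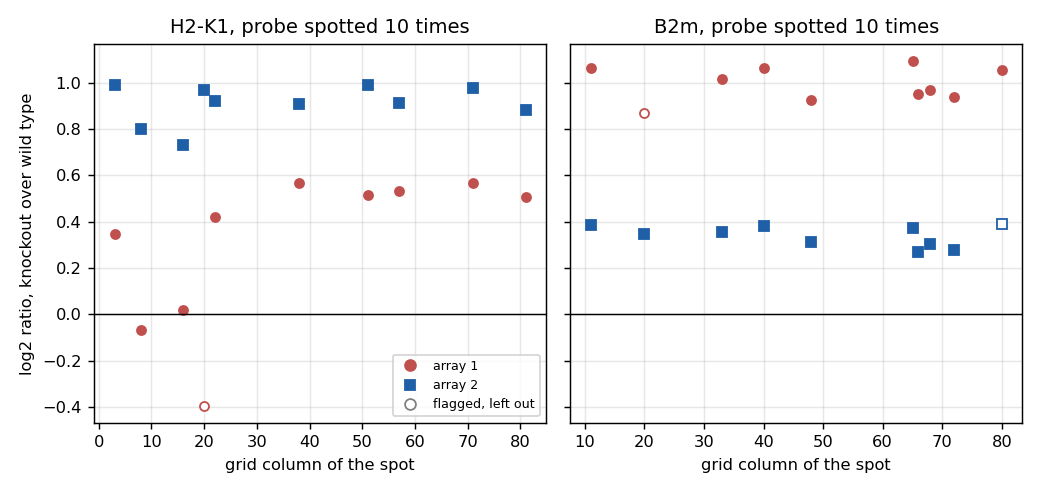
Log2 ratio of each of 10 spots (y axis) against the grid column in which it was printed (x axis), for the replicated probes of H2-K1 (left) and B2m (right), on array 1 (red circles) and array 2 (blue squares); open symbols were flagged and left out. The H2-K1 spots of array 1 sit at 0.50 to 0.57 beyond column 25 and lower before it, and the B2m spots form flat bands near 1.01 and 0.34.

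The TAP transporter, which pumps peptides from the cytosol into the endoplasmic reticulum, had lower values in knockout on array 1 and nearly equal ones on array 2 (both means turn positive with median centring). Tap1 had 11.20 in wild type and 10.68 in knockout on array 1, and 11.40 and 11.33 on array 2. The 2 knockout values lay on either side of the lower wild-type value, and the ratios were -0.53 and -0.07 (mean -0.30 ± 0.32; adjusted p = 0.934, limma). Tap2 had 12.09 and 11.49 on array 1 and 11.67 and 11.76 on array 2, wild type first. Its ratios took opposite signs, -0.60 and 0.09 (mean -0.25 ± 0.49; adjusted p = 0.945). Each gene was measured by a single probe, at mm8 chr17:33804121-33804180 for Tap1 and chr17:33825052-33825639 for Tap2.

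Tapbp encodes tapasin, the bridge between TAP and the heavy chain, and was the member with the smallest spread between arrays. It had 15.67 in wild type and 15.53 in knockout on array 1, and 15.06 and 14.81 on array 2. Knockout was lower within each array, with ratios of -0.14 and -0.26 (mean -0.20 ± 0.08, SD, n = 2; 95% interval -1.17 to 0.78; adjusted p = 0.956, limma). A second probe, 2926 bases nearer the start of the gene, gave -0.24 and -0.34. With median centring, which raised the typical gene by 0.64, the mean ratios of Tap1, Tap2 and Tapbp turned to 0.33, 0.54 and 0.85, around the median of 0.68 that all genes then had.

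Among the chaperones, calnexin and ERp57 stood apart from calreticulin. Canx, the lectin chaperone anchored in the membrane, had 11.67 in wild type and 14.10 in knockout on array 1, and 13.27 and 13.50 on array 2. Knockout was above both wild-type samples on both arrays, but the distance came from the low wild-type sample of array 1. The ratios were 2.44 and 0.22, a mean of 1.33 ± 1.56 (SD, n = 2; unadjusted p = 0.00745, adjusted p = 0.209, limma). Its other probes repeated the imbalance, with 2.60 and 0.15 for one and 1.57 and 0.41 for the other. In wild type the former was not well above background on array 1, and the latter was so on neither array and in knockout on array 1 only.

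Pdia3, the isomerase that sits in the loading complex bound to tapasin, had 11.48 in wild type and 13.81 in knockout on array 1, and 13.28 and 13.71 on array 2. As for Canx, the wild-type sample of array 1 was the low one. The ratios were 2.33 and 0.43, with a mean of 1.38 ± 1.35 (unadjusted p = 0.00555, adjusted p = 0.184). Calr, the soluble counterpart of calnexin, had 13.43 and 13.29 on array 1 and 12.90 and 13.44 on array 2, wild type first. Its ratios of -0.14 and 0.54 disagreed in sign (mean 0.20 ± 0.48; adjusted p = 0.955). A second Calr probe gave 0.40 and 0.19. Past 2-fold higher on array 1 were 3 of the 9 genes, Canx, Pdia3 and B2m, where 21.1% of all genes were, and on array 2 none, where 1.96% were. No member was past 2-fold higher on both arrays (1.12% of all genes), lower on both (0.226%), lower on array 1 (5.9%) or lower on array 2 (0.874%).

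**Figure D4:**
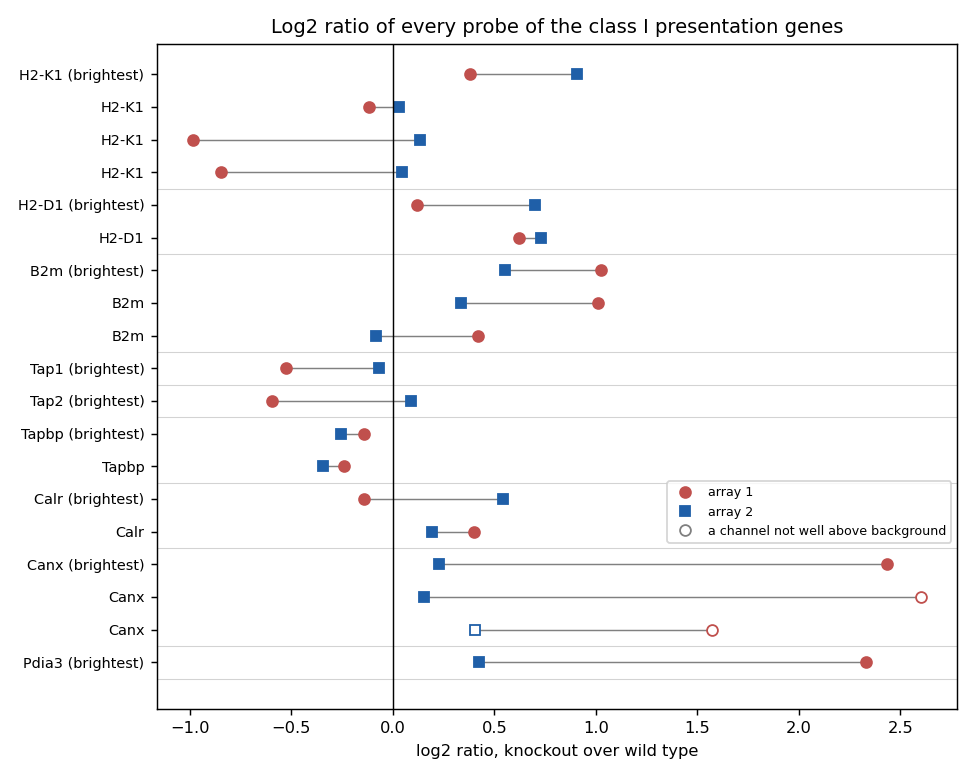
Log2 ratio (x axis) of all 19 probes of the 9 genes (rows, brightest probe of a gene first) on array 1 (red circles) and array 2 (blue squares); open symbols mark a channel not well above background. The 3 probes of Canx and the probe of Pdia3 show wide gaps between arrays (1.57 to 2.60 on array 1), both Tapbp probes lie just below 0 on both arrays (above it for the gene with median centring), and the 4 probes of H2-K1 spread on both sides of 0.

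Related genes were set beside these in 5 lists. Other class I and class I-like heavy chains, encoded next to H2-K1 and H2-D1 or related to them in structure, had no member past the threshold (15 measured of 24, none at an unadjusted p under 0.05, limma). Of these, 3 were above 0 on both arrays, 3 below and 9 of opposite sign, with a median of -0.11. Fcgrt, the neonatal Fc receptor heavy chain, had ratios of -0.57 and -1.23, array 1 first, and Cd1d2 -0.73 and -0.16. H2-Q2 was at 0.12 and 0.48, and Cd1d1, which presents lipids to NKT cells, at 0.64 and 0.07. High ratios on array 2 were not particular to H2-K1 and H2-D1. By their brightest probes, H2-Q7 was at 0.04 and 0.70, H2-Q10 at -0.0023 and 0.67 and H2-T23 at -0.02 and 0.67. On array 2 these stood at percentiles 96.2, 95.9 and 95.9 of all measured genes. In contrast, H2-T22 was at -0.35 and -0.06 and H2-T10 at -0.25 and 0.03. H2-M3, a heavy chain for formylated peptides and the other measured class I gene with the X2 and Y spacing, was at 0.16 and -0.20. Of the 25 genes with that spacing 18 were measured. These include H2-K1, H2-D1 and B2m, each above 0 on both arrays, and the distance was chosen after their promoters had been read. The 18 are therefore not an independent set. None passed (1 at an unadjusted p under 0.05, limma). On both arrays 8 were above 0 (30.9% of all measured genes were) and 4 below (30.8%). Their median was 0.29, against 0.04 over all measured genes.

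Genes of peptide supply make or trim the peptides that TAP carries. None of 12 measured passed (2 at an unadjusted p under 0.05, limma), and their median was 0.02. The immunoproteasome subunit gene Psmb9 was at -0.12 and -0.34, the proteasome activator gene Psme1 at -0.11 and -0.17 and the aminopeptidase gene Npepps at -0.11 on both arrays; all 3 turn positive with median centring. Lnpep, an aminopeptidase of endosomes, was at 1.49 and 0.54.

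Of 17 measured genes of quality control in the endoplasmic reticulum, which serve all secretory proteins, 2 passed the threshold. Both were called higher in knockout, as were 1.24% of all genes, but 1 of the 2 entered only through the knockout samples. Hsp90b1, the chaperone GRP94, had ratios of 3.88 and 0.56 (mean 2.22 ± 2.35; adjusted p = 0.0019, limma), and its second probe gave 1.85 and 0.86. The isomerase gene Pdia4 had 2.78 and 0.74 (mean 1.76 ± 1.44, adjusted p = 0.0334, limma). Its wild-type channel of array 1 was not well above background, so Pdia4 was the gene that entered only through the knockout samples. Hspa5, the chaperone BiP, was at 1.97 and 0.78 without passing (adjusted p = 0.184). The same held for Derl2 (1.87 and 0.59), Dnajb11 (1.54 and 0.32) and Sec61b (-0.90 and -0.30; positive with median centring). The list had a median of 0.94 on array 1 and 0.18 on array 2, with 9 genes above 0 on both arrays, 2 below and 6 of opposite sign. Among the latter were Derl1 (-0.83 and 0.37) and Syvn1 (-0.39 and 0.76), which act in the disposal of misfolded proteins. Neither Hsp90b1 nor Pdia4 passed without background subtraction, with the scanner's own log ratio, after scaling to the same spread or without the filter on dim probes. Pdia4 also lost the call with median centring, and Hsp90b1 without the first 25 grid columns (adjusted p = 0.258).

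Factors that control class I transcription and the interferon response had no passing member (18 measured, 3 at an unadjusted p under 0.05, limma), with medians of 0.87 on array 1 and -0.07 on array 2. By the brightest probe, Jak1, a kinase of interferon receptors, was at 0.82 and 0.62, Irf8 at 0.78 and 0.56 and Nfkb1 at 0.92 and 0.52. Other Jak1 probes gave 1.77 and 0.18, and -2.11 and -0.23. By the array coordinates the last of these lies on the strand opposite to the other Jak1 probes. The mean of all Jak1 probes, with that one, was 0.17. Other Nfkb1 probes that passed the filter gave 3.13 and 0.09, and 0.43 and 0.06. Irf1, an interferon-induced activator of class I promoters, was at -0.65 and -0.46. With median centring its mean was above 0 (0.50) but below the median of all genes (0.68). For MHC class II presentation, a property of B cells and myeloid cells in mice, none of 8 measured genes passed (1 at an unadjusted p under 0.05). The invariant chain gene Cd74 was at 1.25 and 0.68, H2-Ab1 at 2.04 and 0.35, H2-DMb1 at 1.40 and 0.40 and H2-Oa at -0.59 and -0.37. For Cd74, H2-Ab1 and H2-DMb1 the wild-type channel of array 1 was not well above background. H2-Oa turns positive with median centring (0.40, also below the median of all genes). H2-Ab1 turns negative when only probes well above background in both channels on both arrays are used (-0.10).

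**Figure D5:**
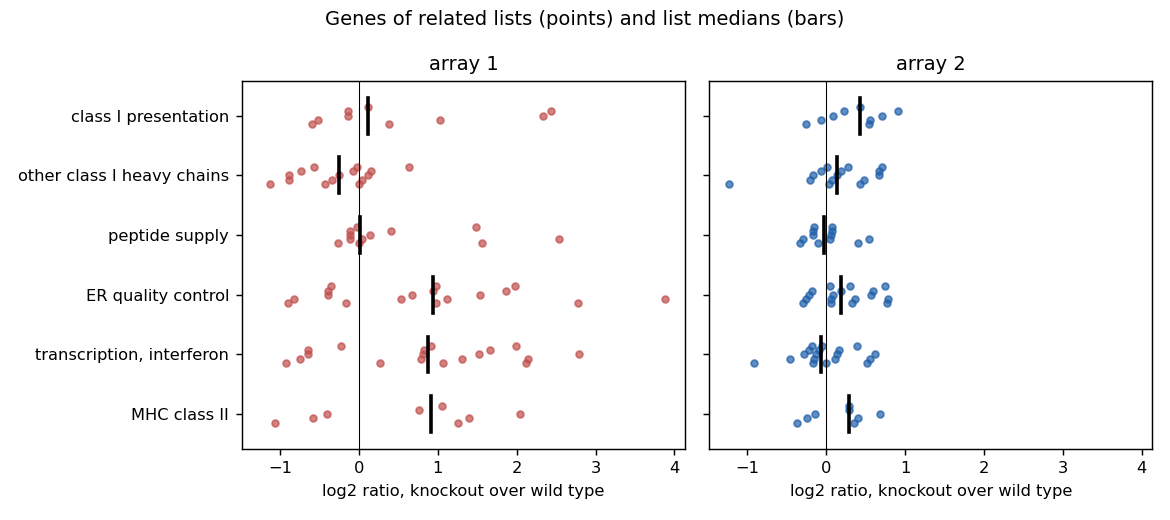
Log2 ratio (x axis) of each measured gene (points) and the list median (black bars) for the class I presentation genes and the 5 related lists, on array 1 (left) and array 2 (right). Spread and medians are wider on array 1 (list medians -0.25 to 0.94) than on array 2 (-0.07 to 0.43).

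Because nearly all cells carry class I molecules, markers of other cells were read beside these ratios. All 10 T cell markers were clearly above background in all 4 samples. Of these, 7 were above 0 on both arrays, 1 was below and 2 had opposite signs, and none passed (3 at an unadjusted p under 0.05, limma). The coreceptor gene Cd8b1 had ratios of 1.11 and 0.93 and Cd8a 0.79 and -0.28, the CD3 chain genes Cd3d 0.09 and 0.47 and Cd3g 2.39 and -0.09, and Cd5, a surface receptor of T cells, -0.69 and -1.80. Of 16 myeloid and dendritic markers 10 were measured, only 1 of them well above background in wild type on both arrays, so most entered through the knockout samples and their number past the threshold is not counted here. Their summed intensity was 23030 and 26549 in the knockout samples and 5053 and 12348 in the wild-type samples. Csf1r, Adgre1 and C1qc, by their brightest probes, were not well above background in wild type on either array. Other probes of Csf1r and Adgre1 were not well above background in any sample. Cd14 went the other way, with ratios of -0.40 and -0.08, and Itgam, Cd68, Cd86 and Clec9a had no probe that passed the filter. Lyz2, the lysozyme of myeloid cells, differed between the arrays: log2 intensities were 8.68 in wild type and 12.71 in knockout on array 1, and 12.77 and 12.38 on array 2, where it supplied most of the wild-type sum. Of 8 NK cell markers 7 were measured, 2 of them well above background in wild type on both arrays. Their sums were 23601 and 91738 in knockout and 8245 and 10704 in wild type. The other NK cell markers entered through the knockout samples, so the filter favoured a higher knockout sum, as it did for the myeloid list. Brightest of the NK list in knockout on array 2 were Fcer1g, Tyrobp and Klrb1c, with log2 intensities of 15.36, 14.36 and 13.98. Ncr1 had ratios of -0.20 and 0.86 and Klra8 0.02 and 0.33. Which cells carried the RNA of these genes was not tested. B cell markers had 3 of 8 measured and none past the threshold (none at an unadjusted p under 0.05, limma), with sums of 5973 and 5011 in knockout and 7453 and 5484 in wild type. Of the CD4 T cell markers, 2 of 4 were measured, and of the erythroid and platelet markers 1 of 6. None of them passed (0 and 1 at an unadjusted p under 0.05, limma). The part of these cells in the class I ratios was not tested.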

How the data were processed

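The submitters' processing notes name Agilent Feature Extraction 9.5.3.1 for the scans. The deposited files give, per spot, mean signal and local background as linear intensity; per the file headers, they also hold a log10 ratio that the software had corrected for background and dye. The deposited value table equals that log10 ratio within 0.005 at all 45018 spots of each array, which settles scale and direction, with column medians of 0 and 0.

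Intensities were corrected with normexp (offset 50) and turned into log2 ratios by loess within arrays in limma 3.58.1 (R 4.3.3), with control and flagged spots at weight 0 and then left out. Spots of a probe were averaged. Probes had to be well above background on both arrays in at least 1 channel, the same on each, and the brightest one stood for its gene. Of 41174 probes, 24375 were named by RefSeq accession 6301 by current symbol, 2426 by older symbol and 8072 by the name in the file. A two-sided test of the mean ratio (lmFit, eBayes) was adjusted after Benjamini and Hochberg for all 9273 genes. The prior degrees of freedom were infinite, so all genes share 1 standard error. Levels are log2 intensities after Aquantile normalisation. Simulated ratios with known changes served to test the fit. It called 4.8% of log2 changes of 1, 83.6% of changes of 2 and 0.0507% of genes without a change.

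The class I genes, the other lists and the tests were chosen with earlier results of these data known. Named were all class I presentation genes and, from the 5 related lists, genes past the threshold and up to 4 others of equal sign on the 2 arrays, by the larger of their smaller absolute ratios. H2-Q7, H2-Q10, H2-T23, H2-T22, H2-T10, H2-M3, Derl1, Syvn1 and the markers were named after their values were seen. Probe positions (mm8) come from the design in the file headers; no mm8 annotation was used, so exons and UTRs are not given. Both arrays lay on 1 slide, so there is no batch to test, and their number (2) limits the precision. Nothing in the labels says how far the replicates were prepared apart. In the main fit, p-values measure only the spread between these arrays, pooled over all genes. A gene's own disagreement between arrays does not enter its p-value, as for Hsp90b1 (3.88 and 0.56, adjusted p = 0.0019, limma).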

Additional observations from a re-analysis of the deposited data

How the results depend on the processing

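No class I presentation gene passed under any alternative that measured it, 10 for each but H2-D1 and Pdia3 with 9 (smallest adjusted p 0.0791, for Pdia3 with median centring). Directions turned for H2-K1 with the mean of all probes (-0.0566, adjusted p = 0.986) and, with median centring, for Tap1 (0.33), Tap2 (0.54), Tapbp (0.85), Psmb9 (0.80), Psme1 (0.98), Npepps (0.54), Sec61b (0.49), Irf1 (0.50) and H2-Oa (0.40). Npepps also turned with the mean of all probes (0.0021), and H2-Ab1 when both channels had to be well above background on both arrays (-0.10). Median centring raised the typical gene by 0.64, to a median of 0.68 over all genes. Tapbp, Psmb9 and Psme1 were then above that median, and Tap1, Tap2, Npepps, Sec61b, Irf1 and H2-Oa below it. The causes of the turns with the other settings were not tested. Of all genes, 138 passed (115 higher, 23 lower). Without background subtraction 35 passed (27 and 8), with median centring 64 (63 and 1), with both channels required 39 (25 and 14), and without spots of the first 25 grid columns 16 (16 and 0; 715 at an unadjusted p under 0.05). The count was 0 with the scanner log ratio (574 unadjusted), after scaling to the same spread (1050) and without the filter on dim probes (2478). Leaving out the spots of the first 25 columns, and leaving the class I spots out of the loess fit, were chosen after seeing the data; the latter gave H2-K1 0.66, H2-D1 0.42 and B2m 0.80. Leaving out an array leaves values without a test: Canx was at 0.22 without replicate 1 and 2.44 without replicate 2, and Pdia3 at 0.43 and 2.33; Tap2 turned to 0.09 without replicate 1 and Calr to -0.14 without replicate 2. The fit was paired within arrays, because each ratio sets a knockout sample against the wild-type sample of its array. No further pairing was possible, as no other group shares the replicate numbers.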
